A study of Mus musculus with 18 samples.

Results

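The EGF family ligands and receptors described here are 9 genes: the ligands Areg, Ereg, Hbegf, Nrg1, Tgfa and Btc, and the receptors Egfr, Erbb2 and Erbb3. They were taken by gene symbol and are 9 of the 23238 symbols in the count tables of 18 mouse libraries. RNA was measured by QuantSeq, a protocol that reads near the 3′ end of polyadenylated transcripts, in 2 sorted cell types of the small intestine of adult C57BL/6J mice. Intestinal stromal cells (IntSCs) positive for PDGFRb and LECs, the lymphatic endothelial cells that line the lacteals of the villi, were sorted from mice of the same 2 genotypes. Per the study, the IntSCs were sorted for the Tomato reporter, which marks cells in which the Cre had acted, and antibodies to CD45, TER-119, CD31 and podoplanin were used in the sorts. Per the labels, the WT groups carried PDGFRb-CreERT2, a tamoxifen-inducible Cre recombinase driven by the Pdgfrb promoter, and the Tomato reporter, and the KO groups carried both of these with floxed alleles of Lats1 and Lats2, the kinases that restrain the transcriptional coactivators YAP and TAZ. The controls of these libraries thus carried the Cre and lacked the floxed alleles, and the study names the same pair of genotypes for its transcriptomes. In KO LEC libraries the deletion was therefore targeted to the neighbouring stromal cells and not to the LECs. Per the study, mice with such a Cre were injected with tamoxifen to induce it. The groups held 6 WT IntSC libraries, 5 from KO IntSC, 4 from WT LEC and 3 from KO LEC.

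EGF family ligands are made as membrane-anchored precursors that are cut free at the cell surface by metalloproteases. They bind the receptor tyrosine kinases of the ERBB family, which pair with each other and signal through RAS and ERK to drive proliferation, survival and migration. In the intestine, stromal and epithelial cells both supply ligands, and the epithelium of the crypt depends on this signal for its renewal. Areg encodes amphiregulin, Ereg epiregulin, Hbegf heparin-binding EGF-like growth factor, Tgfa transforming growth factor alpha, Btc betacellulin and Nrg1 neuregulin 1. Egfr encodes the receptor for most of these ligands, Erbb3 a neuregulin receptor with weak kinase activity, and Erbb2 the preferred partner receptor, which has no known ligand of its own.

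Several of the ligand genes are neighbours. In the RefSeq annotation of GRCm38.p6, the build that the labels call mm10, Ereg lies at chr5:91074617-91093649, Areg at chr5:91139599-91148432 and Btc at chr5:91357261-91402994. Ereg and Areg are 45.9 kb apart with no annotated gene between them, and Areg and Btc are 208.8 kb apart with 2 genes between them, neither of them protein-coding. Tgfa lies at chr6:86195038-86275744 and Nrg1 at chr8:31807452-32891609. Egfr lies at chr11:16752203-16913907, Erbb2 at chr11:98412484-98437716 and Erbb3 at chr10:128567523-128589635. The promoter table held 5 of the 9 members, and the 250 bases upstream of the annotated start are printed for the 4 of these that had reads, because Btc and Egfr varied together across IntSC libraries while Areg, next to Btc, and Erbb2, also a receptor, did so less closely (5′ to 3′ on the strand of the gene, RefSeq sequence, capitals mark the motif matches described after them).

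Areg (chr5:91139349-91139598, plus strand): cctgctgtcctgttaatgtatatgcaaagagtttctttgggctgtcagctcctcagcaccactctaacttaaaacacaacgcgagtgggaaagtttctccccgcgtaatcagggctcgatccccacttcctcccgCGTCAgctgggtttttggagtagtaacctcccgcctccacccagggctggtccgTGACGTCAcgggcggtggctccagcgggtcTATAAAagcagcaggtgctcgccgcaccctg

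Btc (chr5:91402995-91403244, minus strand): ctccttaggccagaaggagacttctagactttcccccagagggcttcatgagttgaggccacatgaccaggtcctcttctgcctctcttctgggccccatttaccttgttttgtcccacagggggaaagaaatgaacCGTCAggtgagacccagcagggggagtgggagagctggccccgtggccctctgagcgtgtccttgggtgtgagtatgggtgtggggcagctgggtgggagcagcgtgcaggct

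Egfr (chr11:16751953-16752202, plus strand): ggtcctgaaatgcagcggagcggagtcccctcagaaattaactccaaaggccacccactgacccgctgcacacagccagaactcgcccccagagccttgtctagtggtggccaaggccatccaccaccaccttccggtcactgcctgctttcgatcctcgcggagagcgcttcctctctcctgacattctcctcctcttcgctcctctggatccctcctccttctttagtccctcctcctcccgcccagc

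Erbb2 (chr11:98412234-98412483, plus strand): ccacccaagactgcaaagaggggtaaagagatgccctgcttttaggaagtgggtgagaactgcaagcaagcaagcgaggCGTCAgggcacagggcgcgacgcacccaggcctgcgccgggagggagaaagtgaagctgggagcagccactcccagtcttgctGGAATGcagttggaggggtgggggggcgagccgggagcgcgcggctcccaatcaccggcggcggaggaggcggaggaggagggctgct

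The windows were searched on both strands for the TEAD motif GGAATG, the AP-1 motif TGACTCA, the cyclic AMP response element TGACGTCA and its core TGACG, which is part of it, and on the strand of the gene for the TATA box TATAAA. The Areg window held the full element 61 to 54 bases before the start, a further core 115 to 111 bases before it and a TATA box 31 to 26 bases before it. The Btc window held 1 core, 113 to 109 bases before the start, and the Egfr window held none of these letters. The Erbb2 window held GGAATG 88 to 83 bases before the start and a core 171 to 167 bases before it. Among the 32851 windows of this length in the table, 12.6% held the TEAD motif, 4.46% the AP-1 motif, 1.55% the full cyclic AMP response element, 17.8% its core and 7.59% the TATA box. The GC content was 57.2% for Areg, 59.6% for Btc, 60.8% for Egfr and 66% for Erbb2, beside a median of 52.4% over all windows. These matches describe the letters only and say nothing of which factor binds there.

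Total counts ranged from 5361250 to 10549233 per library, so that 3 counts correspond to a share between 2.84e-05% and 5.60e-05%. Levels are given as CPM (counts per 1000000 counts of the library, scaled with TMM factors), and p-values measure the spread between the libraries of a group. The study describes several mice per group pooled from more than 1 experiment, but the labels do not say which library came from which experiment, so the experiment could not enter a fit. The sorted cells carried the markers of their labels. The summed level of 9 stromal markers lay between 7668 and 17195 CPM in the IntSC libraries and between 892 and 2481 CPM in the LEC libraries, and that of 9 LEC markers lay between 237 and 498 CPM in IntSC libraries and between 8911 and 15559 CPM in LEC libraries. Lats1 was 17.3 ± 10.2 CPM in WT IntSC (SD, n = 6) and 15.9 ± 3.55 CPM in KO IntSC (SD, n = 5), and Lats2 was 72.0 ± 23.7 CPM and 113 ± 20.9 CPM, and neither passed between these groups (adjusted p = 0.987 and 0.252 by edgeR), so that the targeted genes do not check the label of the libraries labelled KO. Reads from the 3′ end need not report the loss of floxed exons. Pdgfrb itself averaged 479 CPM in WT IntSC and 873 CPM in KO IntSC.

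Of the 9 members, 7 had at least 1 read in some library and Tgfa and Erbb3 had 0 reads in all 18 libraries, as did 4813 of the 23238 symbols (20.7%). For a count of 0, the upper limit of 3 counts applies in each library, with the shares given above. Members with over 3 reads numbered 4 to 7 in each WT IntSC library (median 6.5), 5 to 7 in each KO IntSC library (median 6), 1 to 4 in each WT LEC library (median 2.5) and 0 to 2 in each KO LEC library (median 1). Most IntSC libraries thus had over 3 reads for most of the family, and the LEC libraries for fewer of its genes. LEC libraries also had reads for fewer genes of any kind, 10576 to 12059 symbols beside 11848 to 15926 in IntSC libraries. How much of the contrast is particular to the family was not tested. In bulk RNA of sorted cells, fewer cells of an expressing type and less RNA per cell cannot be told apart.

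**Figure D1:**
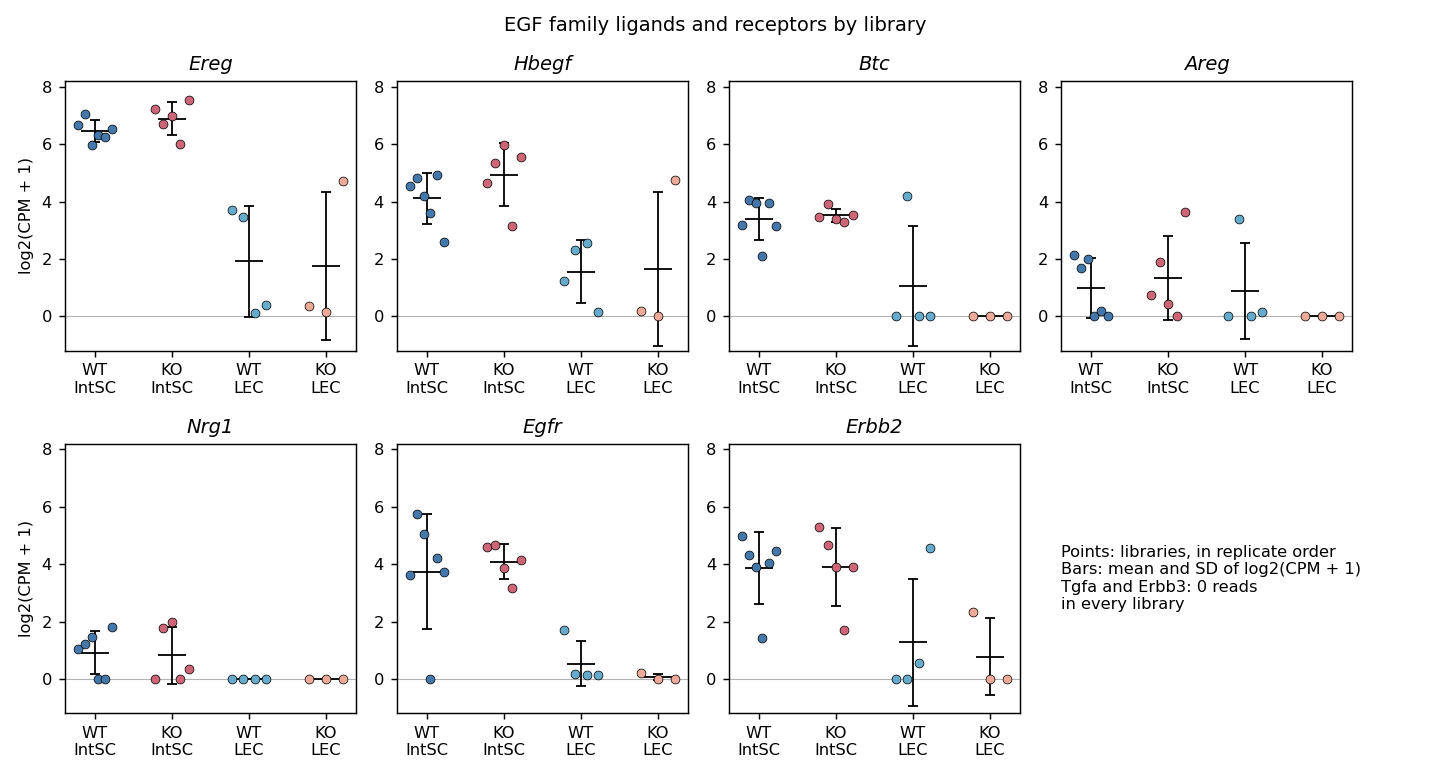
Level of 7 family members as log2(CPM + 1) in each library, by group (6 WT IntSC libraries, 5 of KO IntSC, 4 of WT LEC and 3 of KO LEC); points are libraries and bars give the mean and SD of the log2 values. Ereg lay at 61.7 CPM or above in every IntSC library and at 25.4 CPM or below in every LEC library, while Btc and Areg were at 0 in all 3 KO LEC libraries.

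Between the genotypes, no ligand or receptor passed the test in IntSCs. Ereg and Hbegf averaged higher in KO IntSC than in WT IntSC, Btc was at the same mean level in both, and the receptors Egfr and Erbb2 differed by less than the spread between libraries. Of the 12421 genes tested with edgeR, 183 passed an adjusted p of 0.05 (1.47%), and of the 9 members 7 were tested and 0 passed. No member had an unadjusted p below 0.05 there, and DESeq2 and limma-voom also called 0 members. Members whose WT and KO libraries did not overlap numbered 0, against 2.82% of the genes tested.

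Ereg in WT IntSC ranged from 61.7 to 131 CPM with a median of 84.5 CPM, a mean of 89.6 ± 24.4 CPM (SD, n = 6). In KO IntSC it was 147, 103, 124, 63.5 and 186 CPM, a mean of 125 ± 45.9 CPM (SD, n = 5). The highest 2 libraries were KO, the lowest WT library was close to the lowest KO library, and the groups overlapped. In edgeR the difference on the log2 scale was 0.47 ± 0.25 (SE, adjusted p = 0.588), and by exact permutation p was 0.177. Its coefficient of variation over the WT libraries was 27.3%, beside 46.1% for Btc and 50.9% for Hbegf.

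Hbegf, whose product is both a growth factor and, as its membrane precursor, a cell surface protein, ranged from 4.97 to 29.7 CPM in WT IntSC with a median of 19.8 CPM (mean 18.7 ± 9.52 CPM, SD, n = 6). In KO IntSC it was 24.1, 39.6, 61.1, 7.92 and 46.0 CPM (mean 35.8 ± 20.5 CPM, SD, n = 5). The KO mean was 1.91 times the WT mean, 3 of the 5 KO libraries lay above every WT library, and KO IntSC 4 lay below 5 of the 6 WT libraries. In edgeR the log2 fold change came to 0.93 ± 0.47 (SE, adjusted p = 0.541), and by exact permutation p was 0.199. With WT IntSC 4 and KO IntSC 4, the libraries lowest in several members, left out together, the log2 fold change was 1.08 for Hbegf (adjusted p = 0.334 by edgeR) and 0.61 for Ereg (adjusted p = 0.346 by edgeR).

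Btc ranged from 3.34 to 15.4 CPM in WT IntSC with a median of 11.2 CPM (mean 10.6 ± 4.88 CPM, SD, n = 6) and was 10.1, 14.1, 9.40, 8.83 and 10.4 CPM in KO IntSC (mean 10.6 ± 2.07 CPM, SD, n = 5). The means were alike and the KO libraries sat inside the WT range. Their log2 fold change was -0.01 ± 0.56 (SE, adjusted p = 0.999 by edgeR).

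Areg and Nrg1 were near the floor. Areg was at 3.44 CPM or less in the 6 WT IntSC libraries (median 1.17 CPM) and at 0.653, 2.68, 0.357, 0 and 11.3 CPM in KO IntSC, where 88 of its 116 reads came from replicate 5. Its log2 fold change was 1.04 ± 1.49 (SE, adjusted p = 0.933 by edgeR), and without that replicate it was -0.65, so 1 library set its direction. Nrg1 reached 2.48 CPM in WT IntSC (median 1.20 CPM) and was 0, 2.42, 2.97, 0 and 0.258 CPM in KO IntSC, with 40 and 45 reads in all. Neither gene passed the test, and their coefficients of variation within the IntSC groups ran from 88.8% to 159%.

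Egfr ranged from 0 to 53.4 CPM in WT IntSC with a median of 15.0 CPM (mean 21.1 ± 18.9 CPM, SD, n = 6) and was 23.0, 24.6, 13.6, 8.07 and 16.9 CPM in KO IntSC (mean 17.2 ± 6.79 CPM, SD, n = 5). WT IntSC 4 had 0 Egfr reads and WT IntSC 2 had 315, so the WT libraries spanned more than the KO libraries. The log2 fold change was -0.30 ± 0.73 (SE, adjusted p = 0.971 by edgeR). Erbb2 ranged from 1.67 to 30.9 CPM in WT IntSC with a median of 17.2 CPM and was 38.2, 24.4, 14.0, 2.28 and 14.0 CPM in KO IntSC. Its lowest library was replicate 4 in both groups, and its log2 fold change was 0.13 ± 0.61 (SE, adjusted p = 0.985 by edgeR).

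Markers of other cell types moved with genotype in these libraries: the summed level of 7 Paneth cell markers lay between 0.674 and 36.8 CPM in WT IntSC and between 88.2 and 180 CPM in KO IntSC, and that of 10 epithelial markers between 5.35 and 156 CPM and between 48.6 and 168 CPM. All 7 Paneth markers had reads in KO IntSC, while Mmp7 and Pnliprp2 were at 0 in WT IntSC. The summed level of 6 subepithelial fibroblast markers lay between 149 and 283 CPM in WT IntSC and between 88.6 and 138 CPM in KO IntSC. Within this list Sox6, Bmp7 and Bmp5 averaged lower in KO IntSC, Wnt5a was nearly level, and Foxl1 and F3 averaged higher. The sum of 9 LEC markers lay between 237 and 414 CPM and between 421 and 498 CPM. Pdpn made up most of it, with a mean of 236 CPM in WT IntSC and 326 CPM in KO IntSC. Of the 8 LEC markers tested, 4 had a log2 fold change above 0 and 0 passed. Pecam1 (37.2 CPM in WT IntSC and 87.1 CPM in KO IntSC), Flt4 (3.82 and 9.47 CPM) and Cdh5 (10.4 and 19.3 CPM) also averaged higher in KO IntSC. Ccl21a, Reln and Mmrn1 averaged lower there, and Lyve1 was nearly level. These 2 sums, like the Paneth sum, did not overlap between the genotypes. For 7 blood endothelial markers the sum lay between 1253 and 2724 CPM in WT IntSC and between 947 and 1381 CPM in KO IntSC, with some overlap. Cd34 made up most of this sum, with a mean of 1685 CPM in WT IntSC and 816 CPM in KO IntSC. The sum thus mainly follows that gene and need not follow the number of endothelial cells. Flt1 (54.3 and 108 CPM), Sox17 (18.2 and 46.2 CPM) and Plvap (157 and 169 CPM) averaged higher in KO IntSC, and Vwf, Esm1 and Ackr1 averaged lower. The part of other cell types in the Hbegf and Ereg values was not tested.

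The second question is whether the 2 cell types differ in these genes. In the WT mice, Ereg and Egfr were lower in LECs than in IntSCs, and in the KO mice Btc and Egfr were lower in LECs, with no library shared between the 2 comparisons. Ereg averaged 15.8-fold lower in WT LEC and 14.5-fold lower in KO LEC, and no member was higher in LECs past the threshold. Among 12203 genes tested in the WT mice, 2763 passed (22.6%), 1503 of them lower in LECs (12.3%), and of the 6 members tested 2 passed, both lower. Among 12758 genes tested in the KO mice, 3302 passed (25.9%), 2140 of them lower in LECs (16.8%), and of the 5 members tested 2 passed, both lower. The members' groups did not overlap for Ereg and Hbegf in the WT mice, where 21.1% of genes tested did not overlap, and for Ereg, Btc and Egfr in the KO mice, where 32.2% did not. Since a member could be tested only where enough libraries had reads, these counts are a description of the family and not evidence about it.

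**Figure D2:**
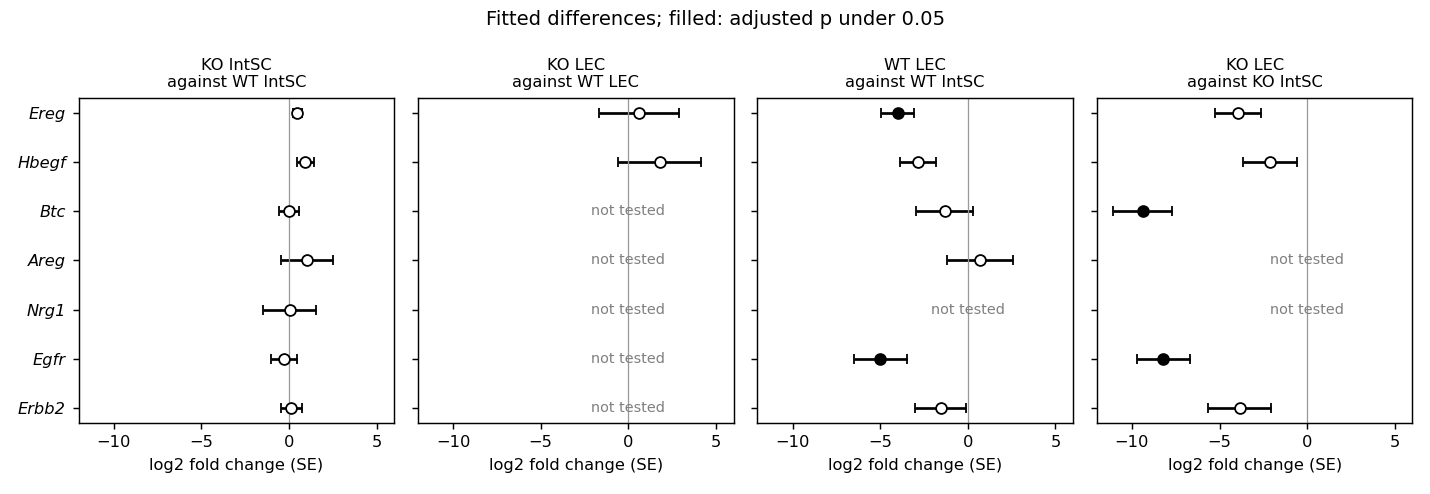
Log2 fold change of 7 family members in 4 comparisons (edgeR quasi-likelihood fits, bars give the SE, filled points passed an adjusted p of 0.05); "not tested" marks genes under the count filter. In IntSCs every KO-against-WT point is open, and the filled points are Ereg at -4.0 and Egfr at -4.98 in the WT mice and Btc at -9.38 and Egfr at -8.22 in the KO mice, the last 2 fitted against groups at or near 0.

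Ereg was 12.2, 10.1, 0.0935 and 0.298 CPM in WT LEC (mean 5.66 ± 6.37 CPM, SD, n = 4) and 0.285, 0.109 and 25.4 CPM in KO LEC (mean 8.60 ± 14.6 CPM, SD, n = 3). Every LEC library lay below every IntSC library, but 3 LEC libraries carried nearly all of its LEC reads and the other 4 had 3 reads or fewer. The log2 fold change against IntSC was -4.0 ± 0.94 in the WT mice (SE, adjusted p = 0.00728 by edgeR) and -3.94 ± 1.32 in the KO mice (SE, adjusted p = 0.0505 by edgeR). The KO value did not pass. Without KO LEC 3, the library with 196 of the 199 KO LEC reads, it was -9.32 (adjusted p = 3.91e-05 by edgeR). In the order of the group means, KO IntSC (125 CPM) and WT IntSC (89.6 CPM) did not differ beyond their spread, nor did KO LEC (8.60 CPM) and WT LEC (5.66 CPM), while LECs lay below IntSCs of the same genotype in the exact permutation tests (p = 0.00952 in WT and p = 0.0357 in KO, the smallest p each design allows). KO LEC was not compared with WT IntSC.

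Hbegf was 1.33, 3.94, 4.86 and 0.0994 CPM in WT LEC (mean 2.56 ± 2.22 CPM, SD, n = 4) and 0.142, 0 and 26.1 CPM in KO LEC (mean 8.73 ± 15.0 CPM, SD, n = 3). The 4 WT LEC libraries lay below the 6 WT IntSC libraries, whereas KO LEC 3 reached the level of the IntSC libraries. The mean was 7.32-fold lower in WT LEC, with a log2 fold change of -2.87 ± 1.02 (SE, adjusted p = 0.0562 by edgeR, p = 0.00952 by exact permutation), and 4.10-fold lower in KO LEC, with a log2 fold change of -2.12 ± 1.56 (SE, adjusted p = 0.388 by edgeR). Hbegf passed in the WT mice without WT LEC 3 (adjusted p = 0.0497 by edgeR) and in the KO mice without KO LEC 3, where its log2 fold change was -8.86 (adjusted p = 0.00176 by edgeR).

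Btc had reads in 1 LEC library only, 141 reads or 17.3 CPM in WT LEC 2, and none in the other 3 WT LEC libraries or the 3 KO LEC libraries. WT LEC 2 thus exceeded every IntSC library. Between the KO groups the mean of 10.6 CPM in IntSC was at least 27.7-fold higher than the floor of 3 counts per library in LEC, and edgeR called the difference (adjusted p = 0.00447). In the WT mice the log2 fold change was -1.31 ± 1.63 (SE, adjusted p = 0.652 by edgeR), and without WT LEC 2 it was -9.38 (adjusted p = 0.00300 by edgeR).

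Areg had 78 of its 79 LEC reads in the same library, WT LEC 2 (9.60 CPM), 1 read in WT LEC 4 and none in the other 5. The log2 fold change of WT LEC against WT IntSC was 0.70 ± 1.90 (SE, adjusted p = 0.855 by edgeR) and turned to -4.94 without that library. Nrg1 had 0 reads in all 7 LEC libraries. Its mean was at least 3.59-fold higher in WT IntSC and at least 2.96-fold higher in KO IntSC than the floor of 3 counts per LEC library, but it was too low to be tested, and its exact permutation tests gave p = 0.143 and p = 0.357.

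Egfr had 28 reads in all LEC libraries together. It was at 2.28, 0.123, 0.0935 and 0.0994 CPM in WT LEC and at 0.142, 0 and 0 CPM in KO LEC. Outside WT LEC 1 no LEC library had more than 1 read. The mean was 32.5-fold lower in WT LEC than in WT IntSC, with a log2 fold change of -4.98 ± 1.53 (SE, adjusted p = 0.0280 by edgeR, p = 0.0476 by exact permutation), but WT IntSC 4 also had 0 reads and the groups overlapped. This call was lost without WT IntSC 2, WT IntSC 3, WT LEC 2, WT LEC 3 or WT LEC 4, with an adjusted p of up to 0.0795. In the KO mice 1 read stood against 657, a ratio of 415 with an exact 95% counting interval from 74.2 to 16403, and the edgeR log2 fold change was -8.22 ± 1.5 (SE, adjusted p = 0.00298), a call kept without any 1 of the 8 libraries. WT LEC 1, with 24 of the 28 LEC reads of Egfr, also had the highest summed stromal markers of the 7 LEC libraries, 2481 CPM beside 892 to 1060 CPM in the others, and the part of these markers in its Egfr level was not tested. Without WT LEC 1 the WT log2 fold change was -7.45.

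Erbb2 was at 0, 0, 0.468 and 22.9 CPM in WT LEC and at 3.99, 0 and 0 CPM in KO LEC. WT LEC 4, with 230 of the 263 LEC reads, reached the level of IntSC libraries, and the other 6 LEC libraries lay at or below 3.99 CPM. The log2 fold change against IntSC was -1.54 ± 1.45 in the WT mice (SE, adjusted p = 0.527 by edgeR) and -3.85 ± 1.80 in the KO mice (SE, adjusted p = 0.149 by edgeR). It passed without WT LEC 4 in the WT mice (-6.58, edgeR adjusted p = 0.00780) and without KO LEC 1 in the KO mice (-10.22, edgeR adjusted p = 0.00621).

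For 5 of the 6 members with LEC reads, most of these reads thus came from 1 library, which differed between members: WT LEC 2 for Areg and Btc, WT LEC 4 for Erbb2, WT LEC 1 for Egfr and KO LEC 3 for Hbegf. For Ereg the highest library was KO LEC 3, with 196 of 413 reads. The highest library held between 47.5% (Ereg) and 100% (Btc) of a member's LEC reads, where an even spread over 7 libraries would give 14.3%. This was usual for these libraries, since the median was 70.5% over the 3774 genes with 28 to 413 LEC reads, the range of the members, with quartiles of 51.9% and 97.5%. In IntSCs the highest library held between 13.5% (Btc) and 50.3% (Areg) of the reads of a member, and the median over 11633 genes with 85 to 8182 reads was 18.3%.

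The third comparison was of LECs between the genotypes, which asks how LECs differ when Lats1 and Lats2 are deleted in the cells around them. No member passed the test. Of 10639 genes tested, 7 passed (0.0658%), and 2 of the 9 members, Ereg and Hbegf, had enough reads to be tested, with 0 passing, 0 at an unadjusted p below 0.05 and 0 by DESeq2 or limma-voom. The 4 WT and 3 KO libraries did not overlap for 0 members and for 9.81% of the genes tested. The log2 fold change was 0.61 ± 2.26 for Ereg and 1.78 ± 2.36 for Hbegf (SE, adjusted p = 1.0 for both by edgeR), and without KO LEC 3 these turned to -4.75 and -4.95. The summed Paneth markers lay between 0.596 and 21.1 CPM in WT LEC. They were 213, 41.1 and 379 CPM in KO LEC 1, KO LEC 2 and KO LEC 3, so these sums did not overlap between the genotypes. KO LEC 3 also had the highest summed epithelial markers of the LEC libraries, 205 CPM beside 4.11 to 104 CPM. KO LEC 1, the next highest in Paneth markers, had 2 Ereg reads and 1 Hbegf read. The part of epithelial and Paneth cells in the Ereg and Hbegf reads of KO LEC 3 was not tested. With 4 against 3 libraries the exact permutation test cannot give a p below 0.0571.

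The interaction of genotype and cell type, the KO-against-WT difference in IntSCs minus that in LECs, was tested over all 4 groups. Of 14015 genes tested, 238 passed (1.70%), and of the 7 members tested 0 passed in edgeR. Areg and Btc had an unadjusted p below 0.05, DESeq2 called Btc alone and limma-voom called 0 members. The values were largest for Areg (8.30 ± 3.50, SE, edgeR adjusted p = 0.241) and Btc (8.07 ± 2.74, SE, edgeR adjusted p = 0.137), the 2 genes whose LEC reads came from WT LEC 2. Without that library they were 2.66 and -0.0049. The values were 3.23 ± 1.96 for Egfr and 2.30 ± 2.19 for Erbb2, and -0.06 ± 1.56 for Ereg and -0.76 ± 1.63 for Hbegf. Nrg1, at 0 in both LEC groups, gave no interpretable value. A cell type difference that passed in 1 genotype and not in the other, as for Ereg and Btc, was therefore not shown to differ between genotypes.

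Over the 28 exact permutation tests of single members (7 members with reads, 4 comparisons, two-sided, unadjusted, 27 of them with a value because Nrg1 was 0 in both LEC groups), 6 gave a p below 0.05. All 6 set LECs against IntSCs, with the LEC mean lower: Ereg, Hbegf and Egfr in the WT mice and Ereg, Btc and Egfr in the KO mice. The share of all genes below 0.05 in such tests was not computed, so this count describes the members only. Genes whose LEC and IntSC groups did not overlap made up 21.1% of those tested by edgeR in the WT mice and 32.2% in the KO mice.

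Across the 11 IntSC libraries, Btc and Egfr, a ligand and its receptor, followed each other. The Pearson correlation of their log2(CPM + 1) was 0.941 and Spearman's rho 0.918, and each was the gene most like the other among 10726 genes with a mean of at least 5 CPM. WT IntSC 4 was lowest for both (3.34 CPM of Btc and 0 reads of Egfr) and WT IntSC 2 was highest for both (15.4 and 53.4 CPM). Without these 2 libraries r was 0.787, and within the 6 WT libraries it was 0.954; 5 KO libraries are too few for a value of their own. These values describe pairs picked as the highest of many and carry no test, and the points share library depth and scaling. Of the other 20 pairs of members the highest by r was Egfr with Erbb2 (r = 0.727, rho = 0.355) and the highest by rho was Ereg with Hbegf (r = 0.596, rho = 0.609), and Ereg with Btc, which lie in the same region of chromosome 5, had r = 0.130 and rho = 0.118.

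**Figure D3:**
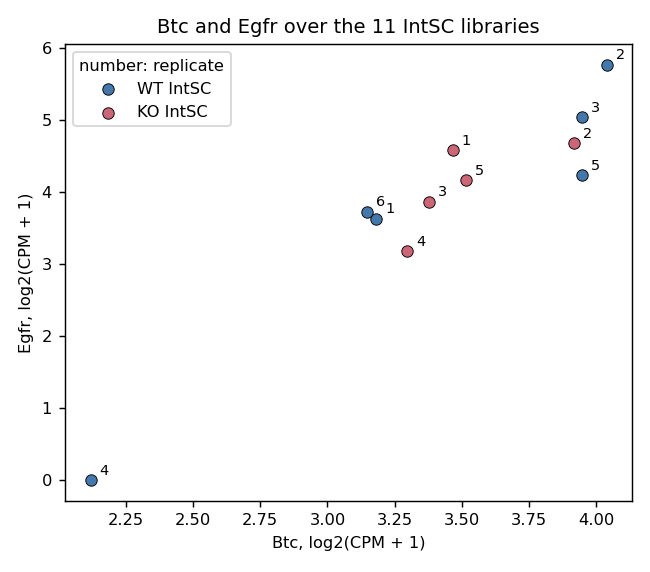
Btc against Egfr as log2(CPM + 1) in the 11 IntSC libraries, WT in blue and KO in red, each labelled with its replicate number. The points rise together from WT IntSC 4 (3.34 CPM of Btc, 0 of Egfr) to WT IntSC 2 (15.4 and 53.4 CPM), with WT and KO libraries intermixed.

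The other genes most like a member over the 11 IntSC libraries were Slc30a6 and Traf6 for Btc (r = 0.890 and 0.889), Adprm and Tipin for Egfr (r = 0.931 and 0.924), Kat2b, Hspa9 and Pde3b for Ereg (r = 0.892, 0.886 and 0.876), Txnrd3, Snai1 and Epha4 for Hbegf (r = 0.882, 0.880 and 0.879) and Gm16617, Scarb1 and Elk1 for Erbb2 (r = 0.932, 0.932 and 0.925). Over all 18 libraries, where the points fall into the 2 cell types, they were S1pr2, Ephb3 and Asb1 for Ereg (r = 0.972, 0.967 and 0.960), Olfml2b, Azin1 and Fosl2 for Hbegf (r = 0.907, 0.892 and 0.887), Slc24a3, Dtna and Kcnma1 for Btc (r = 0.940, 0.938 and 0.934), Arhgef26, Ryr2 and Cdk18 for Egfr (r = 0.947, 0.941 and 0.936) and Zfp385a, Pygo1 and Scamp5 for Erbb2 (r = 0.881, 0.874 and 0.854). Apart from Btc and Egfr in IntSCs, no member was among another member's 3 most alike genes.

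The rest of the pathway was followed through 39 genes: 6 further family genes, 6 genes of ligand shedding, 7 adaptors and ubiquitin ligases, 12 feedback inhibitors and 8 genes that respond to ERK. Between the genotypes 0 of 31 tested passed in IntSCs by edgeR, with 5 at an unadjusted p below 0.05 and a median log2 fold change of 0.01 beside 0.00 over all genes. DESeq2 and limma-voom called Ier3 alone. In LECs 0 of 27 passed by edgeR, with 4 at an unadjusted p below 0.05, 2 called by DESeq2 (Lrig3 and Ier3, both lower in KO) and 0 by limma-voom, and a median of 0.31 beside -0.03 over all genes. Between the cell types 3 of 30 tested were higher and 4 lower in LECs of the WT mice (median -0.62 beside -0.04 over all genes), and 4 of 31 were higher and 8 lower in LECs of the KO mice (median -0.38 beside -0.21). These are 23.3% and 38.7% of the pathway genes tested, beside the 22.6% and 25.9% of all genes given above.

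Of the further family members, Egf, Nrg3 and Erbb4 averaged under 1 CPM in every group. Nrg4 averaged 1.60 CPM in WT IntSC, 0.444 CPM in KO IntSC and 1.81 CPM in WT LEC, was at 0 in KO LEC, and did not pass where it was tested. Epgn, the epigen gene next to Ereg, averaged 2.06 CPM in WT IntSC and 2.75 CPM in KO IntSC and was at or near 0 in LECs. Nrg2 averaged 2.02 and 4.21 CPM in WT and KO IntSC, had 8 reads in WT LEC and 0 in KO LEC, and was at least 11-fold higher in KO IntSC than the KO LEC floor (adjusted p = 0.0197 by edgeR).

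Among the genes of ligand shedding, Adam10, a metalloprotease that releases Btc and other precursors, was higher in LECs by a log2 fold change of 1.90 ± 0.35 in the WT mice and 2.26 ± 0.40 in the KO mice (SE, adjusted p = 0.00101 and 0.00265 by edgeR). Adam17, the main sheddase of Areg, Ereg, Hbegf and Tgfa, was higher in KO LEC than in KO IntSC by 1.0 ± 0.31 (SE, adjusted p = 0.0391 by edgeR), a call lost without KO IntSC 1, KO IntSC 4, KO IntSC 5, KO LEC 2 or KO LEC 3, and by 0.24 in the WT mice (adjusted p = 0.543 by edgeR). Rhbdf1, an inactive rhomboid that helps ADAM17 to reach the cell surface, was lower in LECs by -2.26 ± 0.34 and -1.72 ± 0.40 (SE, adjusted p = 0.000145 and 0.0107 by edgeR). Adam9, Adam12 and Rhbdf2 did not pass in either genotype.

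Of the adaptors, Shc1 was higher in LECs by 0.93 ± 0.27 in the WT mice and 1.14 ± 0.31 in the KO mice (SE, adjusted p = 0.0218 and 0.0224 by edgeR), a call lost without WT LEC 4 in the first and without KO IntSC 5 or KO LEC 2 in the second. Among the feedback inhibitors, Dusp6, a phosphatase that inactivates ERK, was higher in LECs by 1.31 ± 0.37 and 1.47 ± 0.26 (SE, adjusted p = 0.0194 and 0.00281 by edgeR), the first lost without WT LEC 2. Spry2, a Sprouty inhibitor of receptor tyrosine kinase signalling, was lower by -2.29 ± 0.73 and -3.05 ± 0.76 (SE, adjusted p = 0.0368 and 0.0145 by edgeR), the first lost without WT IntSC 2, WT IntSC 6, WT LEC 2 or WT LEC 3. Lrig3 had 1 read in KO LEC against 688 in KO IntSC, a ratio of 434 with an exact 95% counting interval from 77.7 to 17175 (adjusted p = 0.00230 by edgeR). In the WT mice it had 427 LEC reads and did not pass (log2 fold change -0.64, adjusted p = 0.792 by edgeR). Inhibitors of the same signal therefore moved in both directions.

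Of the genes that respond to ERK, Egr1, an immediate early transcription factor, was lower in LECs by -2.52 ± 0.26 and -3.80 ± 0.29 (SE, adjusted p = 4.25e-06 and 1.10e-05 by edgeR), and Phlda1 was lower by -3.59 ± 0.35 and -2.48 ± 0.36 (SE, adjusted p = 1.98e-06 and 0.000786 by edgeR). Etv1 had 0 reads in KO LEC and was at least 24.7-fold higher in KO IntSC (adjusted p = 0.00767 by edgeR). It had 138 reads in WT LEC and did not pass between the cell types of the WT mice (adjusted p = 0.245 by edgeR). Ier3, an early response gene, was the 1 pathway gene that passed the interaction test (1.92 ± 0.38, SE, edgeR adjusted p = 0.00896). It averaged 609 CPM in WT IntSC and 1169 CPM in KO IntSC, and 751 CPM in WT LEC and 399 CPM in KO LEC, without passing between the genotypes in either cell type (adjusted p = 0.0524 and 0.256 by edgeR). Between KO LEC and KO IntSC it was lower by -1.63 ± 0.28 (SE, adjusted p = 0.00218 by edgeR).

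**Figure D4:**
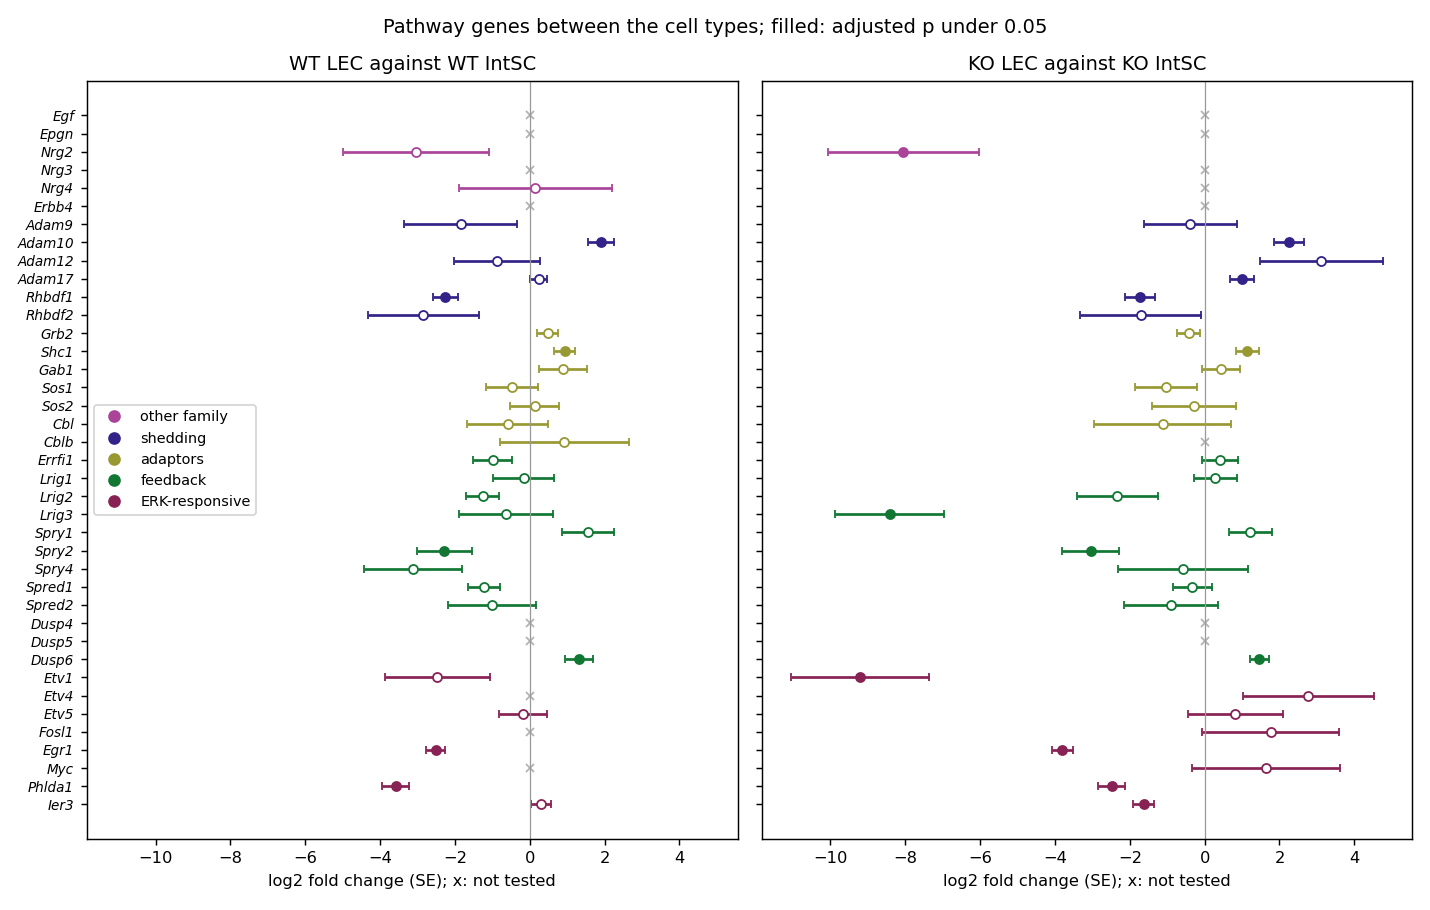
Log2 fold change of 39 EGF pathway genes between LECs and IntSCs in the WT mice (left) and in the KO mice (right), with SE bars and 1 colour per gene list; filled points passed an edgeR adjusted p of 0.05 and crosses at 0 were not tested. Adam10, Shc1 and Dusp6 are filled above 0, and Rhbdf1, Spry2, Egr1 and Phlda1 below 0, in both panels.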

How the data were processed

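RNA of sorted IntSCs and lacteal LECs was sequenced by the authors with the Lexogen QuantSeq kit. The deposited values are raw read counts per gene symbol, 1 table per library, of whole numbers that were not normalised. The labels' processing notes name Bowtie2, edgeR and mm10, and the study's methods name TopHat and Cufflinks. The counting program, its strand setting and the annotation are not given in the sources used here, so reads of overlapping or antisense genes cannot be told apart. Each table held 23282 rows and 23238 symbols. Counts of the 35 symbols on more than 1 row were summed, and none of these was a member.

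Groups and replicate numbers were taken from the sample titles. Tests of the counts used edgeR 4.0.16 under R 4.3.3 (TMM factors, filterByExpr, robust glmQLFit, glmQLFTest, Benjamini-Hochberg over all genes tested, adjusted p under 0.05). Only the 2 groups compared entered a fit, and all 4 entered the interaction. Standard errors came from the quasi-likelihood F statistic. Levels are CPM with TMM factors over the 18 libraries. Single members were compared by two-sided exact permutation tests of mean log2(CPM + 1) in scipy 1.17.1. Alternatives were RLE and upper-quartile factors, DESeq2 1.42.0, limma-voom (limma 3.58.1), a filter of at least 1 read or a mean count of at least 10, Rn45s left out, the replicate number as a block, all 4 groups in one fit, each library left out, and for the exact tests total counts or a pseudocount of 0.1. Leaving out WT IntSC 4 and KO IntSC 4 together was chosen after seeing the data. The fits were tested on simulated data with the same spread for all genes, smaller than that estimated for these libraries. Changes were placed only in well expressed genes, so this check does not cover members near the floor.

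Total counts of 5361250 to 10549233 per library set the precision, and floors of 3 counts and 95% intervals cover counting error only, since copies made by PCR were not told apart by molecular identifiers. No 2 libraries of the same group agreed within sampling noise, and pairs across groups were not compared.

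The members and lists were chosen with earlier results of these data known. Named with values are the 9 members, the pathway genes past the threshold, and for each member with a mean of at least 5 CPM over the 18 libraries the 3 genes with the highest Pearson correlation. The other further family genes are named as well. The sequences and positions are from RefSeq (GRCm38.p6), as far as the tables used here hold them.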

Additional observations from a re-analysis of the deposited data

Results flagged for a closer look

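A library lay apart from the others of its group, by the gap to its nearest neighbour as a share of the group's range (Dixon's 95% limit), in 5 of the 20 groups of 4 to 6 libraries examined. For normally spread values chance would set apart about 1 in 20 groups, or 1 here. That figure does not apply to the WT LEC groups set apart, where the other libraries lay at or near 0. In LECs 1 library usually held most reads of a gene (median share 70.5% over 3774 genes). The count of 5 beside 1 is therefore not evidence of an excess. Areg stood out in KO IntSC 5, at 11.3 CPM, beside 0 to 2.68 CPM in the other 4 libraries. Areg in WT LEC 2 was at 9.60 CPM and Btc in the same library at 17.3 CPM, with the other 3 WT LEC libraries at 0.0994 CPM or below for Areg and at 0 for Btc. Egfr in WT LEC 1 was at 2.28 CPM, beside at most 0.123 CPM in the others. Erbb2 in WT LEC 4 was at 22.9 CPM, beside at most 0.468 CPM in the others. The 3 KO LEC libraries are too few for this comparison. The cause of these values was not tested.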

How the results depend on the processing

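The counts of genes called moved by over 1.5 times as follows. For KO IntSC against WT IntSC (183) DESeq2 called 376 and the fit of all 4 groups 27. For KO LEC against WT LEC (7) DESeq2 called 309, limma-voom 18, the filter of at least 1 read 32, the mean count of at least 10 called 20, and the fit of all 4 groups 538. For the genotype by cell type interaction (238) DESeq2 called 1023 and limma-voom 140. Without 1 library the counts ranged from 99 to 186 in IntSCs (lowest without KO IntSC 3), from 0 to 16 in LECs (0 by edgeR without WT LEC 3, with 594 genes at an unadjusted p below 0.05, and 16 without KO LEC 2), from 2233 to 2891 and from 2557 to 3320 between the cell types of the WT and KO mice, and from 161 to 461 for the interaction (461 without KO LEC 2). Without WT IntSC 4 and KO IntSC 4 together 164 genes were called in IntSCs. The 6 exact tests below 0.05 were as many with total counts or a pseudocount of 0.1. The cause of these shifts was not tested.

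Under a replicate block, 3 genes were called between the LEC genotypes, 1596 and 895 between the cell types of the WT and KO mice, and 16 for the interaction. The sample titles do not say whether libraries with the same number share a mouse, and 0 same-numbered pairs had a correlation of their deviations above 0.1. For LECs and IntSCs of the WT mice the 4 pairs lay between 0.0219 and 0.0380, beside a mean of -0.0055 for other numbers. In the KO mice the 3 pairs lay between -0.0203 and 0.0333. These low values do not decide whether the numbers pair the libraries. Under the block the cell type difference of Egfr did not pass in either genotype (adjusted p = 0.218 and 0.0921) nor that of Btc in the KO mice (0.187), nor did those of Adam10 (0.101), Adam17 (0.203), Rhbdf1 (0.0897), Shc1 (0.223), Dusp6 (0.0671), Spry2 (0.0907), Lrig3 (0.111), Etv1 (0.193) and Nrg2 (0.241) in the KO mice, of Shc1 in the WT mice (0.141) and the interaction of Ier3 (0.0872), and log2 values turned to -0.44 for Areg, 0.083 for Btc and 0.34 for Egfr in IntSCs, -4.05 for Ereg and -2.76 for Hbegf in LECs, -2.52 for Areg between the WT cell types, and 1.48 for Ereg and 2.67 for Hbegf in the interaction.

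Under limma-voom uncalled log2 values turned to -0.42 for Nrg1, 0.076 for Btc and 0.81 for Egfr in IntSCs, -0.43 for Ereg and -1.08 for Hbegf in LECs, -1.38 for Areg between the WT cell types, and 0.98 for Ereg, 1.96 for Hbegf and -0.76 for Nrg1 in the interaction, where Nrg1 was also -0.0043 with RLE factors and -0.34 with DESeq2. Limma-voom lost the WT Egfr call (adjusted p = 0.0678) and called Hbegf, Btc and Erbb2 there, and Ereg, Hbegf and Erbb2 in the KO mice. DESeq2 added Hbegf in the WT mice, Ereg and Erbb2 in the KO mice and Btc in the interaction, and upper-quartile factors added Hbegf in the WT mice (0.0483) and Ereg in the KO mice (0.0497) and lost Adam17 in the KO mice (0.0575). Spry2 in the WT mice did not pass with the filters of at least 1 read (0.1004) or a mean count of at least 10 (0.0540).

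Without 1 library, log2 values that changed sign ranged in IntSCs from -0.65 to 1.36 for Areg, -0.23 to 0.35 for Nrg1, -0.19 to 0.13 for Btc, -0.56 to 0.22 for Egfr and -0.31 to 0.42 for Erbb2; in LECs from -4.75 to 1.20 for Ereg and -4.95 to 2.37 for Hbegf; between the WT cell types from -4.94 to 1.11 for Areg; and in the interaction from -0.78 to 5.31 for Ereg, -1.35 to 5.97 for Hbegf, -0.70 to 0.44 for Nrg1, -0.0049 to 8.46 for Btc and -2.74 to 8.66 for Erbb2. None of these values passed the edgeR threshold in the report. The call of Ereg in the WT mice passed under all 9 alternatives and without each of the 10 libraries.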
